A study of Populus tremula x Populus alba with 12 samples.

Results

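The leaf count tables of a hybrid poplar listed 16866 transcript rows of 16607 loci, and 207 of these loci (1.25%) had more than 1 row. A locus was taken as the row identifier without its final number, so that Potri.007G107300.1 and Potri.007G107300.2 are rows 1 and 2 of the locus Potri.007G107300. The 207 loci, called members here, held 466 rows (2.76% of all rows), and every one of these rows had a count in at least 1 library. The share of a row is the percentage of the reads of its locus, in 1 library, that were counted for that row, and the question was how the shares are split and whether they differ between 4 genotype labels.

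A gene can give several transcripts that differ in their start, in which exons are joined or in where they end. Genome annotations list these transcripts under 1 locus and number them, and the number is a label that does not rank abundance. Alternative splicing in plants is known to change with tissue, light, temperature and stress, and most often leaves an intron in the transcript. Reads from exons that transcripts have in common cannot be placed on a single transcript, and how such reads were assigned here is not given in the sources used here. Hence the values are shares of counted reads and not of molecules, and no transcript length was used.

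RNA of fully expanded leaves was sequenced in 12 libraries of *Populus tremula* × *Populus alba*, clone INRA 717, with 3 libraries for each of 4 genotypes. The groups were knockout, in which CRISPR was directed at a glycosyltransferase, a group with an intermediate phenotype (intermediate for short), then empty-vector and finally wild-type. All plants were clonal, came from in vitro culture, and were sampled at mid-stem after 3 months in a greenhouse with lighting of 16 h. Empty-vector and wild-type libraries together are called controls. The labels do not name the edited gene, the guide or the number of edited lines, and do not say what makes the intermediate group intermediate. They do not say whether the libraries of a group came from separate plants or lines either, so the p-values cover only how far these libraries spread, which may be technical.

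Library totals ran between 5.38 and 17.3 M counts. The 207 loci held 0.412% of all counts, and 10 of them held 47.9% of that amount. Their part of a library was highest in empty-vector libraries 1 and 3, at 0.501% and 0.519%, and lay between 0.341% and 0.429% in the other 10. A single locus, Potri.016G141500, gave 10327 of the 49001 member counts in empty-vector library 1, 10401 of 74194 in library 2 and 8391 of 42910 in library 3. It had 32 to 539 counts in knockout, 793 to 5633 in intermediate and 2212 to 2967 in wild-type libraries. Empty-vector library 2 was the deepest. The files do not pair identifiers with names, so loci are given by identifier without a function, the leaf label was not checked against marker genes, and the knockout label was not checked against the edited gene.

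Most of the loci had few rows. There were 183 loci with 2 rows, 11 with 3, 7 with 4, 2 with 5, 1 with 6, 1 with 7 and 2 with 8. Rows 1 and 2 were the pair in 129 loci and rows 1 and 3 in 18, and the highest row number was 20. A row 1 was missing from 45 of the 207 loci (21.7%), whereas 1004 of the 16400 loci with a single row (6.12%) were listed under a number other than 1. By the chromosome number in the identifier, the proportion of loci with more than 1 row was lowest on chromosome 19 (0.607%) and highest on chromosome 18 (1.85%). The median locus with several rows had 631 counts over the 12 libraries and the median locus with 1 row had 849.

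In the 183 loci of 2 rows, 1 row holds the majority of the reads by construction unless the rows tie, so only the size of its share is informative. With the 12 libraries summed, the most abundant row held a median of 72.9% of its locus (quartiles 59.4% and 81.7%). The most abundant row held at least 90% in 27 loci and 60% or less in 56. The extremes were 99.7% in Potri.016G141500 and 21.8% in Potri.001G025100. The median was 56.7% in the 24 loci of 3 or more rows and 74.2% in the 183 loci of 2 rows. The lowest-numbered row was the most abundant in 126 of 207 loci (60.9%), and row 1 led in 79 of the 129 loci that had rows 1 and 2.

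**Figure D1:**
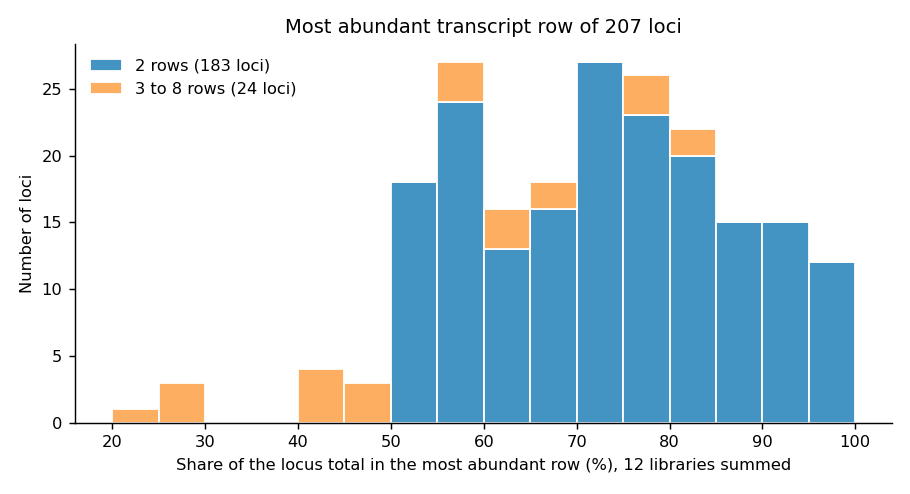
Histogram of the share of the locus total held by the most abundant row (x axis, percent of the counts summed over the 12 libraries) against the number of loci (y axis), stacked for 183 loci with 2 rows and 24 loci with 3 to 8 rows. Loci with 2 rows start at 50% by construction, the median over all loci is 72.9%, and the lowest value, 21.8%, belongs to a locus with 8 rows.

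The 4 loci that drew the most reads were Potri.016G141500, Potri.001G348900, Potri.001G253300 and Potri.001G449500, with mean totals of 443, 278, 226 and 209 CPM (counts per M counts of the scaled library). These totals are not divided by length, so they rank reads and not transcripts. Except for the first, these loci had many rows and no called share. Potri.001G348900 had 8 rows, led by row 3 with 25.8% of the summed reads, row 8 with 24% and row 5 with 22.4%. Its row 3 stayed between 22.4% and 28.4% in all 12 libraries, with means of 24.5% ± 1.22 for knockout, 25.3% ± 2.63 for intermediate, 26.2% ± 2.09 for empty-vector and 26.6% ± 2.15 for wild-type (SD, n = 3 each).

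Potri.001G253300 had 7 rows, of which row 12 held 62.9% of the summed reads. The share of row 12 averaged 68.3% ± 4.10 for knockout, 63.2% ± 0.948 for intermediate, 59.2% ± 4.61 for empty-vector and 65.0% ± 5.27 for wild-type (SD, n = 3 each), and ranged between 56.5% and 72.0% over the libraries. Potri.001G449500 had 4 rows, and row 14 held 69.8%, with all libraries between 64.5% and 73.7%. Potri.001G025100 also had 8 rows and no dominant one. Its row 6 held 21.8%, rows 7, 13 and 3 held 16.9%, 15.6% and 14.4%, and the other 4 held between 2.62% and 12.4%. No share of these 4 loci passed the test between knockout and controls (edgeR, adjusted p = 0.77, 0.47, 0.56 and 0.34 in the order Potri.001G348900, Potri.001G253300, Potri.001G449500, Potri.001G025100).

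The most even splits among loci with 2 rows and a mean total of at least 20 CPM were those of Potri.007G107300 (53.4% in the leading row), Potri.006G004700 (55.1%) and Potri.010G232800 (57.3%). Row 1 of Potri.006G004700 had a share of 60.1%, 51.3% and 55.9% in the knockout libraries and 57.4%, 54.7% and 50.9% in the intermediate ones, with 54.9%, 55.7% and 56.5% in empty-vector and 52.8%, 59.2% and 52.6% in the wild-type libraries. The 4 groups overlapped, and row 1 had more than 50% in all 12 libraries. Between knockout and controls its log2 ratio differed by 0.04 ± 0.16 (SE), with a 95% interval between −0.29 and 0.36 (edgeR, adjusted p = 0.99).

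Shares were tested for 154 of the 207 loci (74.4%), which held 97.7% of the counts of the 207. A row and the other rows of its locus each needed 30 counts over the 12 libraries, and the locus needed 10 counts in at least 2 libraries of every group. Just inside the first limit was Potri.001G429800 with 31 counts and just outside it was Potri.001G253200 with 27. For the second limit, 4 loci stood exactly at 10 counts and 7 at 9. The 53 loci without a test had a median total of 141 counts, against 944 in the tested ones. The test compared the log2 ratio of the reads of a row to the reads of the other rows of its locus, with the library as a block, so that depth and the total of the locus drop out. A difference of 1 in this log2 ratio is a 2-fold change of the ratio, and a locus was called at an adjusted p under 0.05 over the 154 loci.

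Shares varied between libraries of a group by a median SD of 4.53 percentage points over the 228 tested rows. As a variance, the spread was a median of 1.35 times what counting alone would give, and 173 rows stayed at or under 2 times. The highest value, 14.6 times, belonged to row 1 of Potri.016G141500. Of the other rows called below, row 9 of Potri.013G062300 had 7.49. Row 1 had 7.92 in Potri.003G191300, 3.93 in Potri.005G074100, 3.69 in Potri.007G107300 and 2.21 in Potri.009G143300. It had 1.70 in Potri.002G113100, 0.813 in Potri.T089300 and 0.776 in Potri.T065900. The test takes the spread of a row partly from all tested rows. The p-values of widely spread rows thus lean on the smaller spread of other loci. Between knockout and controls the 95% interval of the log2 ratio reached a median of 0.81 to either side, or 1.76-fold. The interval lay wholly within a 2-fold change either way for 95 of the 228 rows (41.7%), so for the other rows a change of that size is not excluded by these data.

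Between knockout and controls, the shares of 9 of the 154 tested loci changed (5.84%, edgeR quasi-likelihood test, adjusted p under 0.05). In 5 of them the row with the smallest p gained share in knockout and in 4 it lost share. All loci with a share test have several rows, so there is no outside set to compare this percentage with. An unadjusted p under 0.05 was reached by 23 loci. The libraries of the groups did not overlap in the row with the smallest p for 15 of 154 loci (9.74%), among them 8 of the 9 called ones. The typical difference was small: the mean share of the first tested row differed by a median of 3.56 points, and 26 loci, 6 of them called, had a row that differed by at least 10 points. Leaving out 1 library at a time gave between 6 and 11 called loci, DESeq2 gave 5 and edgeR's diffSpliceDGE 3. Without empty-vector libraries 1 and 3, an alternative chosen after seeing the data, 7 loci were called here, 0 between intermediate and controls and 5 between knockout and intermediate.

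**Figure D2:**
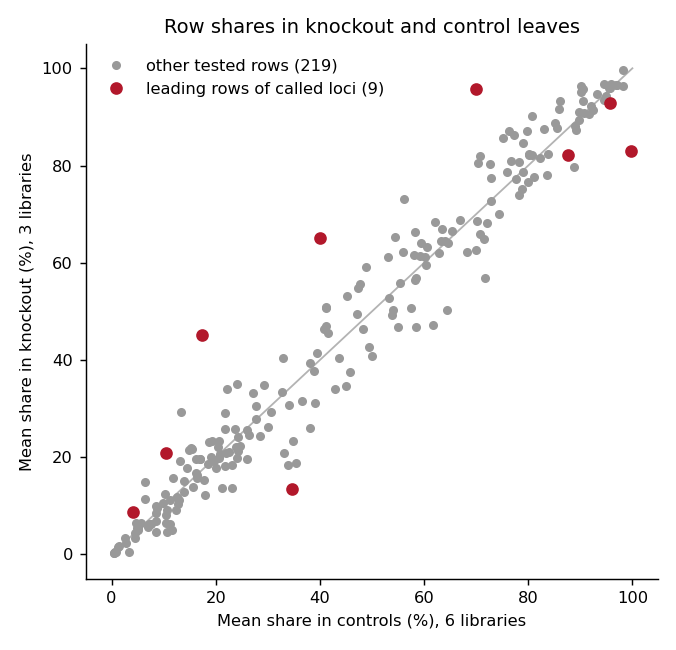
Mean share of each of the 228 tested rows in 3 knockout libraries (y axis, percent) and in 6 control libraries (x axis, percent), with the line of equal shares in grey; red points are the leading rows of the 9 called loci. Most rows lie near the line, and the called rows farthest from it belong to Potri.005G074100 (45.2% against 17.4%), Potri.003G191300 (95.7% against 69.9%) and Potri.007G107300 (65.0% against 40.1%).

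Potri.007G107300 was the locus whose leading row changed with the smallest p. Its row 1 held 67.3%, 67.8% and 59.98% of the reads in knockout libraries, against 44.8%, 43.0% and 50.5% in empty-vector and 33.6%, 30.8% and 37.9% in the wild-type libraries. All 3 knockout libraries were above all 6 controls, and row 1 was the more abundant row in knockout while row 2 was in 5 of the 6 controls. The mean share was 65.0% ± 4.39 in knockout (SD, n = 3) and 40.1% ± 7.37 in controls (SD, n = 6). The log2 ratio was higher by 1.42 ± 0.18 (SE; edgeR, adjusted p = 1.3e-08). Row 2 was at 12.0, 10.3 and 42.2 CPM in knockout, against 41.8, 30.8 and 41.1 CPM in empty-vector and 58.0, 59.3 and 43.2 CPM in the wild-type libraries. Knockout library 3 stood apart in level, since row 1 was at 63.3 CPM there and at 24.6 and 21.6 CPM in the other 2, but its share was near theirs. In whole leaves, fewer cells of a type and less RNA per cell cannot be told apart. Neither row passed the test of its own level (log2 fold change 0.30 ± 0.33, adjusted p = 0.54, for row 1 and −1.04 ± 0.40, adjusted p = 0.066, for row 2; edgeR). The call was lost with diffSpliceDGE only (adjusted p = 0.32), and kept in the other 19 of 20 alternatives.

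In Potri.005G074100 row 1 gained 27.8 points, the largest gain of a called locus. The share of row 1 was 49.1%, 50% and 36.4% in knockout, against 23.7%, 11.8% and 34.7% in empty-vector and 12.3%, 3.03% and 18.6% in the wild-type libraries. The groups did not overlap, though knockout library 3 and empty-vector library 3 were within 2 points of each other. In knockout the log2 ratio was higher by 2.15 ± 0.37 (SE; edgeR, adjusted p = 1.9e-05). The level of row 1 rose, with 4.62, 3.17 and 5.60 CPM in knockout, against 1.68, 1.57 and 1.82 CPM in empty-vector and 3.46, 0.535 and 1.69 CPM in the wild-type libraries. This was a log2 fold change of 1.34 ± 0.36 (2.54-fold; edgeR over all rows, adjusted p = 0.014), and row 2 had −0.81 ± 0.47 (adjusted p = 0.22). The share call was lost with diffSpliceDGE only (adjusted p = 0.065).

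In Potri.003G191300 the minor row lost share and level in knockout. Row 1 held 96.7%, 97.0% and 93.3% of the reads in knockout, against 58.2%, 86.6% and 63.8% in empty-vector and 76.7%, 79.7% and 54.5% in the wild-type libraries. Every knockout library was above every control, and the controls were widely spread (mean 69.9% ± 12.9, SD, n = 6). Against controls the log2 ratio was higher by 3.09 ± 0.54 (SE; edgeR, adjusted p = 2e-05), a call kept in all 20 alternatives. Row 2 had 2, 1 and 7 counts in knockout, against 94, 24 and 72 in empty-vector and 10, 12 and 51 in the wild-type libraries. Its level fell 9.85-fold (log2 fold change −3.30 ± 0.90, adjusted p = 0.015, edgeR), while row 1 had −0.10 ± 0.23 (adjusted p = 0.79).

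Potri.016G141500 drew the most reads of all 207 loci, nearly all from row 1, and lost them in knockout. The share of row 1 was 85.1%, 65.6% and 98.0% in knockout, against 99.8%, 99.7% and 99.8% in empty-vector and 99.6%, 99.7% and 99.7% in the wild-type libraries. The knockout libraries were all below the controls and far from each other. The lower shares rest on few reads: the 65.6% is 21 of 32 (exact 95% binomial interval 46.8% to 81.4%) and the 85.1% is 40 of 47 (71.7% to 93.8%), which covers counting error only. The log2 ratio was lower by 4.49 (−4.49 ± 0.66, SE; edgeR, adjusted p = 5.6e-07), was −6.81 without knockout library 3, and was called in all 20 alternatives.

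Row 1 of Potri.016G141500 was at 6.84, 3.92 and 57.9 CPM in the knockout libraries and at 144, 677 and 596 CPM in the intermediate ones. It was at 959, 604 and 894 CPM in empty-vector and 423, 479 and 453 CPM in the wild-type libraries. The level fell 25.9-fold between knockout and controls (log2 fold change −4.70 ± 0.84, edgeR over all rows, adjusted p = 0.0013). Row 2 stayed between 1.06 and 2.05 CPM in all 12 libraries, from 7 to 32 counts each (log2 fold change −0.10 ± 0.31, adjusted p = 0.83). The total of the locus fell 24.5-fold (−4.61 ± 0.78, adjusted p = 0.00089). It was the 1 locus whose share and total were both called between knockout and controls.

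**Figure D3:**
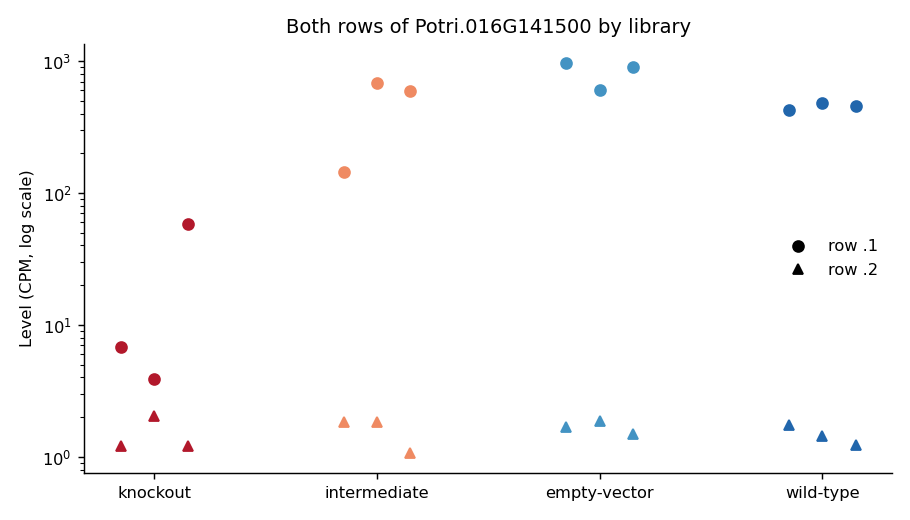
Level of row 1 (circles) and row 2 (triangles) of Potri.016G141500 in CPM on a log axis, 1 point for each library of the 4 genotypes. Row 1 is at 3.92 to 57.9 CPM in knockout and at 423 to 959 CPM in the 6 controls, and row 2 is at 1.06 to 2.05 CPM in every library.

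In Potri.T089300 row 1 lost 21.1 points. Its share was 12.5%, 20% and 8.11% in knockout, against 26.7%, 35.8% and 32.4% in empty-vector and 28.6%, 43.5% and 40.7% in the wild-type libraries. The groups did not overlap, but row 1 had 3 counts in each knockout library, of 24, 15 and 37 for the locus, and the exact 95% binomial interval of the 20% spanned 4.33% to 48.1%. Its log2 ratio was lower by 1.93 (−1.93 ± 0.56, SE; edgeR, adjusted p = 0.021). The call was lost without knockout library 1 (adjusted p = 0.10), knockout library 3 (0.23) or empty-vector library 2 (0.057), with DESeq2 (0.085) and with empty-vector as the only control (0.11).

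Potri.013G062300 had 4 rows, of which row 9 was called. Row 9 held 12.3%, 1.92% and 12.2% in knockout, against 3.01%, 6.40% and 13.4% in empty-vector and 0%, 1.49% and 0% in the wild-type libraries. Knockout and empty-vector libraries overlapped, with knockout library 2 below every empty-vector library, and the wild-type libraries were lowest. The log2 ratio was higher by 2.32 ± 0.59 between knockout and controls (SE; edgeR, adjusted p = 0.021). With empty-vector as the only control it was 0.24 (adjusted p = 0.99) and with wild-type alone 4.39 (adjusted p = 0.00064). Without wild-type library 2 the log2 ratio was 3.92. The call was lost without knockout library 1 (adjusted p = 0.21) or 3 (0.15), intermediate library 3 (0.082), or library 1 (0.061) or 3 (0.16) of wild-type, and with limma (0.43), DESeq2 (0.48) and diffSpliceDGE (0.37). Rows 1, 4 and 7 of this locus held 59.9%, 19.3% and 14.4% of the summed reads and had log2 ratios of −0.07 ± 0.22, −0.22 ± 0.25 and −0.16 ± 0.26.

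The other 3 called loci fall outside the rule for named loci and were chosen after their values were seen. Row 1 of Potri.009G143300 held 17.0%, 25.7% and 19.8% in knockout, against 8.05%, 8.77% and 6.53% in empty-vector and 9.92%, 13.2% and 16.3% in the wild-type libraries. The knockout libraries were above all controls, with wild-type library 3 within 1 point of the lowest. The log2 ratio was higher by 1.17 ± 0.21 (SE; edgeR, adjusted p = 2e-05), with wild-type as the only control 0.76 (adjusted p = 0.052). Row 1 rose in level as well, with a log2 fold change of 1.36 ± 0.23 (2.57-fold; adjusted p = 0.00088), while row 2 had 0.18 ± 0.18 (adjusted p = 0.50).

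Potri.002G113100 and Potri.T065900 differed by small amounts. Row 1 of Potri.002G113100 held 94.3%, 92.9% and 91.2% in knockout, against 95.5%, 94.5% and 96.2% in empty-vector and 95.7%, 96.3% and 95.4% in the wild-type libraries. The lowest control and the highest knockout library were less than 1 point apart. Its log2 ratio was lower by 0.75 (−0.75 ± 0.22, SE; edgeR, adjusted p = 0.021), and the call was lost in 8 of 20 alternatives, among them those without knockout library 3 (adjusted p = 0.24) or empty-vector library 3 (0.052). Row 1 of Potri.T065900 held 80.7%, 84.1% and 81.6% in knockout, against 87.3%, 85.5% and 86.6% in empty-vector and 89.3%, 87.1% and 90.1% in the wild-type libraries. No knockout library reached the controls. The log2 ratio was lower by 0.65 (−0.65 ± 0.20, adjusted p = 0.045), and the call was lost in 13 of 20 alternatives, 8 of them with 1 library left out: knockout 1 (0.21) or 3 (0.21), intermediate 2 (0.050), empty-vector 1 (0.095), 2 (0.057) or 3 (0.054), and wild-type 1 (0.061) or 3 (0.14).

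**Figure D4:**
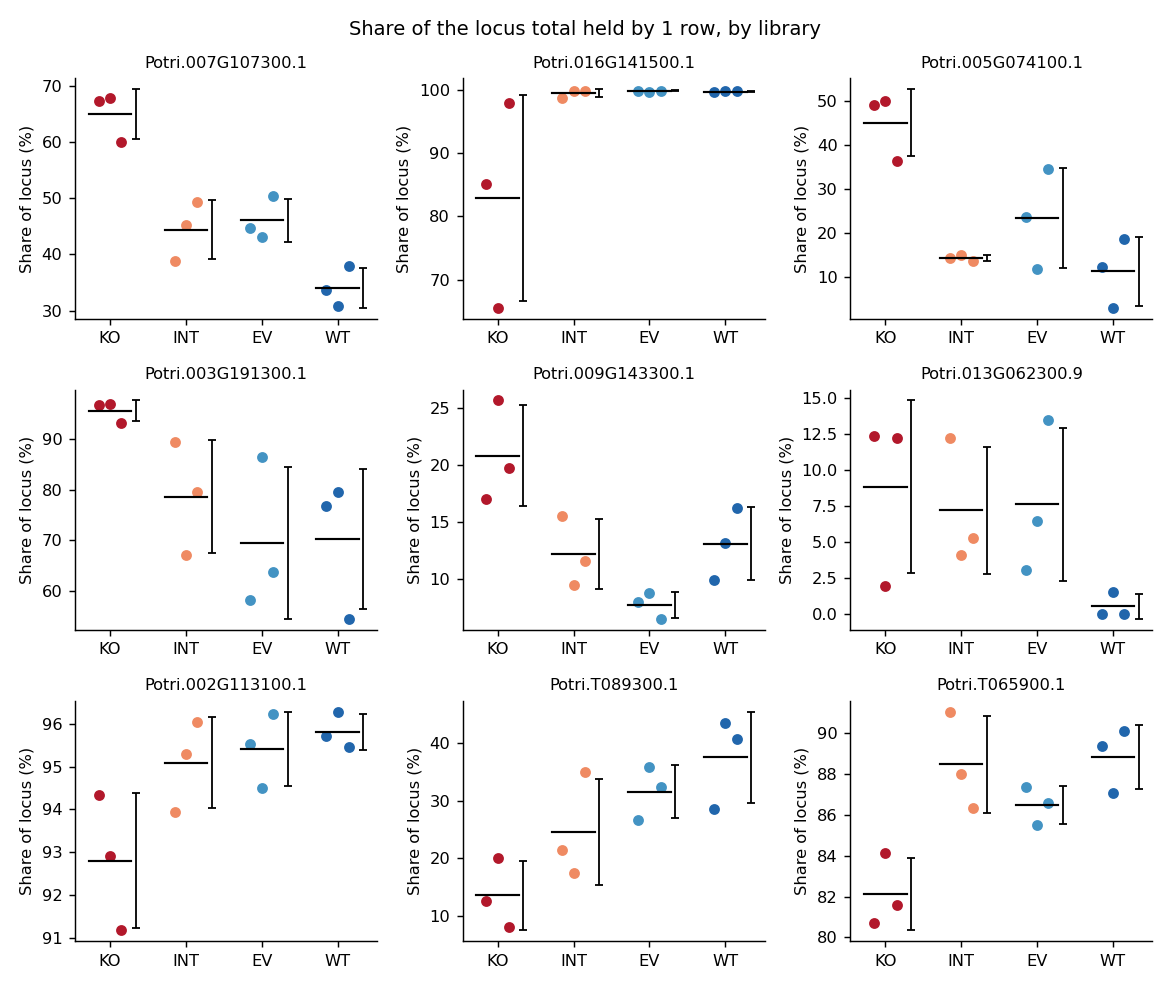
Share of the locus held by the leading row of the 9 loci called between knockout and controls (y axes, percent, each panel with its own range that does not start at 0) in knockout (KO), intermediate (INT), empty-vector (EV) and wild-type (WT) libraries. Points are libraries, horizontal lines group means and vertical bars 1 SD (n = 3). In 8 panels all 3 knockout points lie on 1 side of the 6 controls, and in Potri.013G062300 row 9 they overlap with empty-vector.

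Between intermediate and controls, no share was called in the 154 tested loci (0%, edgeR). An unadjusted p under 0.05 was reached by 2 loci, and limma, DESeq2 and diffSpliceDGE also called 0. The groups did not overlap in 2 of 154 loci (1.3%), and the first tested row differed by a median of 2.69 points. A single locus was called without empty-vector library 3, or with wild-type as the only control. The 95% interval lay within a 2-fold change either way for 107 of the 228 rows (46.9%). Of the 9 loci called in knockout, intermediate libraries had shares of 38.8%, 45.3% and 49.3% in Potri.007G107300 row 1 and of 14.4%, 15.0% and 13.6% in Potri.005G074100 row 1. Potri.003G191300 row 1 held 89.5%, 67.1% and 79.5% there. These values lay within the range of the 6 controls, except for intermediate library 1 in Potri.003G191300. The log2 ratios against controls were 0.29 ± 0.17, −0.02 ± 0.43 and 0.60 ± 0.41 (SE; edgeR, adjusted p = 0.98 for each). Potri.T089300 row 1 held 21.4%, 17.4% and 35.0% in the intermediate libraries, of which the first and second were below all controls. Intermediate library 1 was also below all controls, as knockout was, in row 1 of Potri.016G141500 (98.7%) and Potri.002G113100 (93.9%). Row 2 of Potri.016G141500 held 1.26% in that library, against 0.167% to 0.407% in the controls. In row 1 of Potri.T065900 intermediate library 1 was above all controls (91.0%), opposite to knockout. In Potri.009G143300 row 1 and Potri.013G062300 row 9 all 3 intermediate libraries were within the range of the controls.

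Between knockout and intermediate, 5 of 154 loci were called (3.25%, edgeR), 4 with a gain of the leading row and 1 with a loss. The libraries did not overlap in 26 loci (16.9%), the first tested row differed by a median of 4.25 points, and 17 loci had an unadjusted p under 0.05. This comparison uses the same knockout libraries as the one with controls, so the values are given side by side and are not independent. In Potri.005G074100 row 1 the log2 ratio was higher by 2.17 ± 0.42 in knockout than in intermediate (adjusted p = 0.00017), and in Potri.007G107300 row 1 by 1.13 ± 0.21 (adjusted p = 8.7e-05). Potri.016G141500 row 1 was lower by 4.24 (−4.24 ± 0.69, adjusted p = 1.5e-05), and was −6.57 without knockout library 3. Its share in the intermediate libraries was 98.7%, 99.7% and 99.8%, above all 3 knockout libraries. Limma and diffSpliceDGE called none of the 5 and DESeq2 called 3.

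Weaker in the same comparison were Potri.003G191300 row 1, with a log2 ratio higher by 2.49 ± 0.64 (edgeR, adjusted p = 0.0094), and Potri.009G143300 row 1, higher by 0.92 ± 0.24 (adjusted p = 0.0094). The call for Potri.003G191300 was lost without knockout library 1 (adjusted p = 0.059) or intermediate library 2 (0.22) or 3 (0.064). Row 1 of Potri.009G143300 held 15.5%, 9.47% and 11.6% in the intermediate libraries, below all 3 knockout ones, and its call was lost without knockout library 2 (0.093) or intermediate library 2 (0.22) or 3 (0.068). The count fell to 3 without intermediate library 2 or 3.

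Empty-vector and wild-type, the 2 kinds of control, differed in 2 of 154 loci (1.3%, edgeR). The libraries did not overlap in 22 loci (14.3%), and 12 loci had an unadjusted p under 0.05. With 3 libraries against 3, the 14.3% is not comparable with the percentage for knockout against the 6 controls either. Row 9 of Potri.013G062300 had 11, 19 and 53 counts in empty-vector and 0, 2 and 0 counts in the wild-type libraries, of locus totals of 128 to 395 counts. With libraries summed, 83 of 1058 reads in empty-vector and 2 of 494 in wild-type gave a ratio of row 9 to the other rows that was 20.9-fold higher in empty-vector, with an exact 95% counting interval of 5.57 to 176. The test gave an adjusted p of 0.0041 (edgeR), which was 0.17 if wild-type library 3 was left out. The fitted log2 ratio of 4.15 rests on these 2 counts and became 7.35 if library 2 of that group was left out.

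The other was Potri.007G107300, where row 1 held 44.8%, 43.0% and 50.5% in empty-vector and 33.6%, 30.8% and 37.9% in the wild-type libraries. The groups did not overlap, and the log2 ratio was higher by 0.72 ± 0.19 in empty-vector (SE; edgeR, adjusted p = 0.025). It was not called without empty-vector library 3 (adjusted p = 0.24) or wild-type library 2 (0.27). Limma, DESeq2 and diffSpliceDGE called neither locus. The count was 4 with wild-type library 1 left out and 1 with library 2 or 3 of that group left out. Against knockout, the locus was called with either control alone (log2 ratio 1.06 with empty-vector, adjusted p = 7.3e-05, and 1.78 with wild-type, adjusted p = 1.1e-09).

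A test for any difference among the 4 genotypes called 6 of 154 loci (3.9%, edgeR with 3 degrees of freedom), and 19 had an unadjusted p under 0.05. They were Potri.003G191300, Potri.005G074100, Potri.007G107300, Potri.009G143300, Potri.013G062300 and Potri.016G141500. The mean share of row 1 of Potri.005G074100 spanned 33.8 points between the highest group, knockout with 45.2% ± 7.59, and the lowest, wild-type with 11.3% ± 7.85 (SD, n = 3 each). For Potri.007G107300 the span was 30.9 points, again between knockout and wild-type. Limma kept 2 of the 6, Potri.007G107300 and Potri.016G141500, both with an adjusted p of 0.023.

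Few tested loci exchanged their leading row between whole groups. The same row was the most abundant in all 12 libraries in 107 of the 207 loci and in 102 of the 154 tested ones, with a tie counted as no leading row. By group means, the leading row differed between knockout and controls in 11 of the 154, and between empty-vector and wild-type in 12. It differed between knockout and intermediate in 14 and between intermediate and controls in 7. A clean exchange, with 1 row leading in every library of a group and another in every library of the other, occurred in 1 tested locus between knockout and controls, 0 between intermediate and controls, 2 between knockout and intermediate, and 1 between empty-vector and wild-type. These loci were chosen after their values were seen. Row 1 of Potri.009G078800 held 48.1%, 46.4% and 47.1% in knockout, against 65.2%, 60.7% and 64.8% in empty-vector and 65.0%, 62.5% and 52.4% in the wild-type libraries. All knockout libraries were under 50% and all controls above it. The locus had 16 to 89 counts in these libraries, and its log2 ratio of −0.83 ± 0.44 did not pass the test (edgeR, adjusted p = 0.35).

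Between knockout and intermediate the exchanges were in Potri.007G107300, described above, and Potri.T069100. Row 1 of Potri.T069100 held 60%, 52.9% and 51.4% in knockout and 35.7%, 41.2% and 32.5% in intermediate libraries, on 14 to 40 counts for the locus (log2 ratio 1.10 ± 0.56; edgeR, adjusted p = 0.47). Between empty-vector and wild-type it was Potri.008G010400, with 3 rows. Its row 6 held 46.1%, 46.9% and 52.5% in empty-vector and 36.7%, 28.6% and 36.8% in the wild-type libraries, while row 3 led in wild-type with 44.4%, 47.6% and 40.0% (row 6, 0.86 ± 0.31, adjusted p = 0.50).

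Where several rows of a locus were called in level between knockout and controls, they moved in the same direction. Of 111 loci with at least 2 rows in the test of single rows, 36 had a row called between knockout and controls (edgeR over all 14279 rows). In 7 of these, 2 or more rows were called and all were higher in knockout, in 4 all were lower, and in 0 did called rows go in opposite directions. In the other 25 exactly 1 row was called, 13 higher and 12 lower. Of all rows 30.1% were called, 17.1% higher and 13% lower, and of the 308 member rows 18.5%. A locus with several rows has several chances of a call, so 36 of 111 cannot be set directly against these percentages. In the 90 loci with 2 rows, both tested, the log2 fold changes of the rows differed by a median of 0.30 (1.23-fold), and by 1 or more in 9. Both rows were called in 10 of the 90, with the same sign in all 10. How reads shared by the rows of a locus were assigned is not known, and its part in this agreement was not tested.

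**Figure D5:**
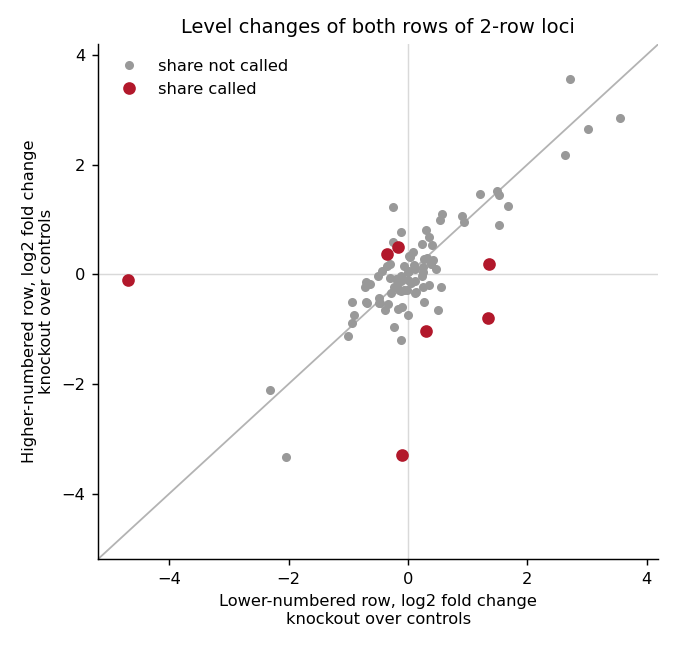
Log2 fold change between knockout and controls of the lower-numbered row (x axis) and of the higher-numbered row (y axis) for 90 loci with 2 rows, with the line of equal change in grey; red points are loci whose share was called. Most points lie near the line, with 81 of 90 differing by less than 1, and Potri.016G141500 (−4.70 and −0.10) and Potri.003G191300 (−0.10 and −3.30) lie near the axes.

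Locus totals were tested apart from the shares. Between knockout and controls, 42 of the 189 members with a test of the total were called (22.2%), against 30.3% of all 14160 loci tested. Of the members, 26 were higher and 16 lower in knockout, where 17.2% of all loci were higher and 13.1% lower. The median log2 fold change of these 189 totals was −0.07, against −0.02 over all loci. Of single rows, 57 of 308 were called (18.5%), against 30.1% of all rows. Here 34 were higher and 23 lower, where 17.1% of all rows were higher and 13% lower. The members had fewer counts than single-row loci (medians above), and their rows taken singly had fewer still, a median of 196 against 849. The part of depth in these percentages was not tested. Of the 154 loci with both tests, 31 had a called total without a called share, 8 a called share without a called total, 1 both and 114 neither. Leaving out knockout library 1 gave the fewest calls, 28 totals and 41 rows, against 21.3% of all loci and 21.1% of all rows in that fit.

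The members whose totals moved farthest between knockout and controls were chosen after their values were seen. Potri.T051200 had 38, 27 and 15 counts in the knockout libraries and 0, 0 and 2 in the intermediate ones, against 0 in each empty-vector library and 1, 0 and 0 in the wild-type ones. Its reads were thus nearly all in knockout, and both rows had counts in all 3 of these libraries. With libraries summed, 80 counts in knockout and 1 in controls gave a 208-fold ratio per library count, with an exact 95% counting interval of 36.2 to 8308. Potri.003G169900 was at 5.47, 7.09 and 8.12 CPM in knockout, against 0.651, 3.15 and 0.747 CPM in empty-vector and 0.384, 0.535 and 0.153 CPM in the wild-type libraries, and rose 8.997-fold (log2 fold change 3.17 ± 0.48, adjusted p = 0.00039). Empty-vector library 2 was the highest control. Both of its rows rose, by 3.55 (adjusted p = 0.00097) and 2.86 (0.0025) on the log2 scale.

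Lower totals were led by Potri.016G141500, given above, and Potri.017G099000. Potri.017G099000 was at 0.855, 0 and 2.85 CPM in knockout, against 6.33, 7.46 and 9.50 CPM in empty-vector and 8.64, 11.2 and 7.20 CPM in the wild-type libraries. No knockout library reached the controls, and knockout library 2 had 0 counts. The total fell 5.89-fold (log2 fold change −2.56 ± 0.52, edgeR, adjusted p = 0.0028), and rows 2 and 4 both fell, by 2.04 (−2.04, adjusted p = 0.010) and 3.34 (−3.34, adjusted p = 0.00094).

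In the other comparisons fewer totals were called. Between knockout and intermediate, 20 of 189 totals (10.6%) and 29 of 308 rows (9.42%) were called, against 17.5% of all loci and 17.4% of all rows. The member totals were 13 higher and 7 lower in knockout, where 10.1% of all loci were higher and 7.44% lower. The member rows were 15 higher and 14 lower, where 9.94% of all rows were higher and 7.41% lower. Without knockout library 1 these counts were 9 totals (4.62%) and 14 rows (4.19%), against 11.4% of all loci and 11.3% of all rows. Without empty-vector library 2 they were 26 (13.4%) and 44 (13.5%), against 21.2% and 21.1%. Between intermediate and controls, 0 member totals and 0 member rows were called, against 0.00706% of all loci and 0.007% of all rows (edgeR). DESeq2 called 0 of either, against 0.445% of all loci and 0.441% of all rows. An unadjusted p under 0.05 was reached by 11 of 189 totals and 16 of 308 rows (edgeR). The share of all loci or rows at that threshold was not counted. Between empty-vector and wild-type, 0 member totals and 0 member rows were called, against 0.0424% of all loci and 0.042% of all rows, where the higher calls alone were 0.0353% and 0.035%. An unadjusted p under 0.05 was reached by 39 of 189 totals and 51 of 308 rows (edgeR), again without a count over all loci or rows. DESeq2 called 3 of each, against 1.77% of all loci and 1.76% of all rows. Without empty-vector library 2 there were 17 totals (8.76%) and 21 rows (6.46%), against 8.97% of all loci and 8.89% of all rows. With all 12 libraries the median log2 fold change of the member totals was 0.22, against 0.05 over all loci, and empty-vector libraries 1 and 3 are those in which the members held the largest part of all counts.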

How the data were processed

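Per the labels' protocols, leaf RNA was extracted with phenol and chloroform, mRNA was enriched on beads and libraries were made with an Illumina kit. The authors deposited 1 table of raw counts per transcript row for each library, and no other columns of per-sample values were present (0). HISAT2, SAMtools, Cufflinks, HTSeq and DESeq2 are named, without role or version, per the submitters' processing notes. The genome build and strandedness, and how reads shared by transcripts were assigned, were not given in the sources used here.

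Rows were grouped into loci by removing the final number, and the members and lists were chosen with earlier results of these data known. The share test was edgeR 4.0.16 (R 4.3.3) glmQLFit on the counts of a row and of the other rows of its locus. Library was a block, with 8 residual degrees of freedom, and 53.9 in total once the spread was moderated over all tested rows. Loci of 3 or more rows were combined by Simes' method, and p-values were adjusted by Benjamini-Hochberg over all 154 loci. Levels of rows and of locus totals were tested by edgeR quasi-likelihood on the whole table, with TMM scaling and filterByExpr (minimum count 10). All groups entered each fit. The scripts were tested on simulated data.

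Named were, per comparison, up to 2 called loci whose lowest-numbered row gained share and 2 whose lowest-numbered row lost share, ranked by the largest difference in mean share of a row. The 4 loci of highest mean total, 2 with the most rows, 3 with the most even split at 20 CPM or more and those nearest the count limit were named as well. Alternatives were count minimums of 10 and 120, limma 3.58.1 on log2 ratios (offset 0.5), DESeq2 1.42.0, diffSpliceDGE, each control alone, other scaling, no filter and each library left out. An alternative without empty-vector libraries 1 and 3 was chosen after seeing the data. No libraries of a group were duplicates (lowest chi-square per degree of freedom 8.48). Exact binomial intervals are Clopper-Pearson at 95% and cover counting error only.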

Additional observations from a re-analysis of the deposited data

How the results depend on the processing

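No called share shift changed direction under an alternative that gave a direction. The test among the 4 genotypes and diffSpliceDGE gave none. Of the values for single loci, 333 kept their side of the threshold and 73 lost it. Called share shifts among the 4 genotypes numbered 6, and 2 with limma (5 to 7 with 1 library left out). Between knockout and controls there were 9, with 5 by DESeq2, 3 by diffSpliceDGE and 5 with empty-vector as the only control (6 to 11). Between intermediate and controls there were 0, and 1 with wild-type as the only control (0 to 1). Between knockout and intermediate there were 5, with 0 by limma, 3 by DESeq2 and 0 by diffSpliceDGE (3 to 5). Between empty-vector and wild-type there were 2, with 0 by limma, DESeq2 and diffSpliceDGE (1 to 4). For member rows, leaving out 1 library gave 41 to 65 calls between knockout and controls, 0 to 0 between intermediate and controls, 14 to 44 between knockout and intermediate and 0 to 21 between empty-vector and wild-type, where DESeq2 gave 3. For member totals these ranges were 28 to 43, 0 to 0, 9 to 26 and 0 to 17, and DESeq2 gave 3 in the last. Between knockout and controls the lowest and highest counts were 12.3% and 20.2% of member rows, against 21.1% and 27.5% of all rows. For totals they were 14.4% and 22.2% of members, against 21.3% and 29% of all loci. Percentages for knockout against intermediate and for empty-vector against wild-type are given above. The cause of these ranges was not tested, though leaving out a library or raising the minimum also changes which loci are tested. Potri.T089300 had no value under the minimum of 120 counts or in diffSpliceDGE. The count limits left 53 loci without a share test. No paired analysis was possible because the labels give no replicate numbers shared between groups.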

Other observations

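The tested row with the widest spread within groups was row 1 of Potri.003G166100, with a mean within-group SD of 20.04 points. Its variance within groups was 7.94 times what counting would give. Its share was 27.6%, 11.4% and 16.2% in the knockout libraries and 12.5%, 74.4% and 22.9% in the intermediate ones, with 27.0%, 37.3% and 21.7% for empty-vector and 6.90%, 42.3% and 68.2% for wild-type. Both the intermediate and the wild-type libraries spanned most of the range, and the log2 ratio between knockout and controls was −1.45 ± 0.58 (SE; edgeR, adjusted p = 0.19).

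Closest outside the threshold between knockout and controls were loci with more than 2 rows. Row 2 of Potri.001G368000 held 15.0%, 9.73% and 16.2% in knockout, against 21.6%, 21.5% and 19.3% in empty-vector and 25%, 23.4% and 27.8% in the wild-type libraries (log2 ratio −0.86; edgeR, adjusted p = 0.059). Row 5 of Potri.008G002900 held 10.4%, 11.8% and 14.7% in knockout, against 17.4%, 16.6% and 17.9% in empty-vector and 23.2%, 17.8% and 14.8% in the wild-type libraries (−0.62 ± 0.18, adjusted p = 0.072). In both rows every knockout library was below every control, in the second by less than 1 point.

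Pooled over the tested loci with 2 rows, the share of the lower-numbered row had library medians of 63.1%, 65.0% and 65.7% for knockout and 59.5%, 64.4% and 61.6% for intermediate, with 62.2%, 63.5% and 64.9% for empty-vector and 66.7%, 67.9% and 61.9% for wild-type. The groups overlapped.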
